A study of Mus musculus with 141 samples.

Results

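Six2, Six3, Six4, Six5 and Six6 are genes of the sine oculis homeobox family, 5 of the 21627 protein-coding mouse genes of the RefSeq annotation. They were taken by name, and every CpG of the deposited single-cell methylation table that lay inside a gene or within 2000 bp of either end was used. Their windows held 775 table positions, which merged to 699 CpGs. Of these, 212 were read in a minimum of 5 cells per arm, and these shared CpGs carried the comparisons. The study treated IDH-mutant glioma models with inhibitors of the mutant enzyme, and asked what the treatment did to the state of the cells. Here, cultured mouse glioma cells carrying IdhR132H received AG-881, an inhibitor of mutant isocitrate dehydrogenase, at 1 µM for more than 2 weeks, or the vehicle DMSO for the same time. The allele was shared by both arms. Live single cells, positive for calcein AM and negative for TO-PRO-3, were sorted into wells, and DNA methylation was read by reduced representation bisulfite sequencing (RRBS), in which the enzyme MspI cuts at CCGG to enrich CpG-dense DNA.

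The table held 67 AG-881 cells in library pools 1 to 4 and 74 DMSO cells in library pools 5 to 8. Each arm was counted as 1 treated culture with cells as its members, no pool held both arms, and treatment and pool cannot be told apart. No test was therefore made between the arms, and no p-value is given. Intervals in brackets are 95% exact binomial (Clopper-Pearson) intervals over pooled CpG calls, or for a difference the interval built from the pair of them. They cover counting error only, and calls from 1 cell are not independent. AG-881 cells had a median of 89440 CpG calls (23895 to 190259) and DMSO cells 67749 (10438 to 165853). Over all 396065 shared CpGs of the genome the methylation level was 25.4% with AG-881 and 26.8% with DMSO, and pools ranged from 23.6% to 28.4% with AG-881 and from 25.8% to 27.6% with DMSO. The cell type could not be checked, since the transcriptomes of these cells were not analysed here.

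The family encodes homeobox transcription factors related to Drosophila sine oculis. Each pairs a domain particular to the family with a DNA-binding homeodomain, and the family acts with the Eya coactivators, which bind no DNA themselves, and with Dach cofactors. Six2 maintains the progenitors of the kidney's nephrons, Six3 and Six6 pattern the forebrain, the eye and the pituitary, Six4 takes part in muscle development, and Six5 lies beside Dmpk, the gene of the myotonic dystrophy repeat. Genes of this kind often start within CpG islands, whose methylation usually accompanies silence.

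The start-site sequences below show where the shared CpGs lay at the 3 genes whose promoters held any. Each runs from 250 bases before to 50 after a RefSeq start site on GRCm38.p6 (the sequence of mm10), 5′ to 3′ on the gene's strand, and capitals mark the CG dinucleotides that were shared CpGs.
Six2, chr17:85688205-85688504, minus strand: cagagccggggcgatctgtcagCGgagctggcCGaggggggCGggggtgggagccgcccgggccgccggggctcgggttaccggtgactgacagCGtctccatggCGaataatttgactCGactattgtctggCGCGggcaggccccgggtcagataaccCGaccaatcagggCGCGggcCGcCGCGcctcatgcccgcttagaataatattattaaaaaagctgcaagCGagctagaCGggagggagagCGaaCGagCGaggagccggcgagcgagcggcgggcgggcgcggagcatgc
Six4, chr12:73113196-73113495, minus strand: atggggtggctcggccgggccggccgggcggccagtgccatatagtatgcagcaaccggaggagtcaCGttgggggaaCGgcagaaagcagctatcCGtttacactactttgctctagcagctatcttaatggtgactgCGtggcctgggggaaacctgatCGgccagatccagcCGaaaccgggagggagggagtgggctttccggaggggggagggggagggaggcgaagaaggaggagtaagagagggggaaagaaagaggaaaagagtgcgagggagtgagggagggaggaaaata
Six5, chr7:19094294-19094593, plus strand: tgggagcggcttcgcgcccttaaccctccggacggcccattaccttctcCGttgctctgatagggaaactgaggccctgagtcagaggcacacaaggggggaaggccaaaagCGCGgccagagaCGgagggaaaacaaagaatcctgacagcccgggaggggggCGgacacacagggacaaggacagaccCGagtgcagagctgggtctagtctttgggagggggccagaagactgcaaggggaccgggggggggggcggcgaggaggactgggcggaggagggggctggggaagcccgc

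The Six2 promoter was by far the densest of them, with 37 CG dinucleotides and 6 CCGG sites, against a median of 7 CG dinucleotides over all 32619 RefSeq promoters of 300 bases. The Six4 promoter held 16 CG dinucleotides and 6 CCGG sites, and that of Six5 held 17 and 3. RefSeq gives Six4 another start site at 73113425, from which its distances are counted here; that promoter overlaps the printed one and held 15 CG dinucleotides, 5 CCGG sites and 3 shared CpGs, without a methylated call in either arm. Not every CpG read was shared: 27 had a call at the Six2 promoter, 10 at that of Six4 and 14 at that of Six5. The CCGG motif reads the same on both strands and was found in 53.1% of all promoters. The promoters of Six3 (14 CG dinucleotides, 1 CCGG site) and Six6 (20 CG dinucleotides, 3 CCGG sites) had calls at 3 and 10 CpGs, but none reached the minimum of 5 cells in both arms.

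The 3 promoters printed above had unlike methylation. At the 19 shared CpGs of the Six2 promoter the level was 36.5% (29.4 to 44; 178 calls) with AG-881 and 52.1% (44.2 to 60; 163 calls) with DMSO, a difference of −15.6 percentage points (−26.2 to −4.68). These CpGs are part of a longer run across the Six2 start site, described below, where the difference depended on AG-881 pool 1. At the 6 of Six4, 0 of 40 calls were methylated with AG-881, with an interval up to 8.81%, and 1 of 35 calls with DMSO. At the 6 of Six5, 1 of 60 calls was methylated with AG-881 and 0 of 73 with DMSO, the latter with an interval up to 4.93%. The Six2 start was thus partly methylated in both arms, and the starts of Six4 and Six5 were nearly free of methylation in both.

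Over the whole windows the family fell into the same 2 classes. Six2, Six3 and Six6 were methylated at intermediate levels, between 41.3% and 52.3% with AG-881 and between 49.8% and 62% with DMSO. Six4 and Six5 stayed at or below 3.35% in both arms. Within a class all neighbours in the order of levels had overlapping intervals, except Six2 and Six3 with DMSO. Six6 had the largest difference between the arms, Six2 the next, and the other 3 genes differed by 1.27 points or less. A window is counted as lower or higher below when it differed by at least 10 points with an interval that left out 0. By this rule Six6 was lower with AG-881, 1 of the 5, beside 349 of 11903 measured gene windows of the genome (2.93%). None of the 5 was higher, beside 106 or 0.891% of all windows.

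**Figure D1:**
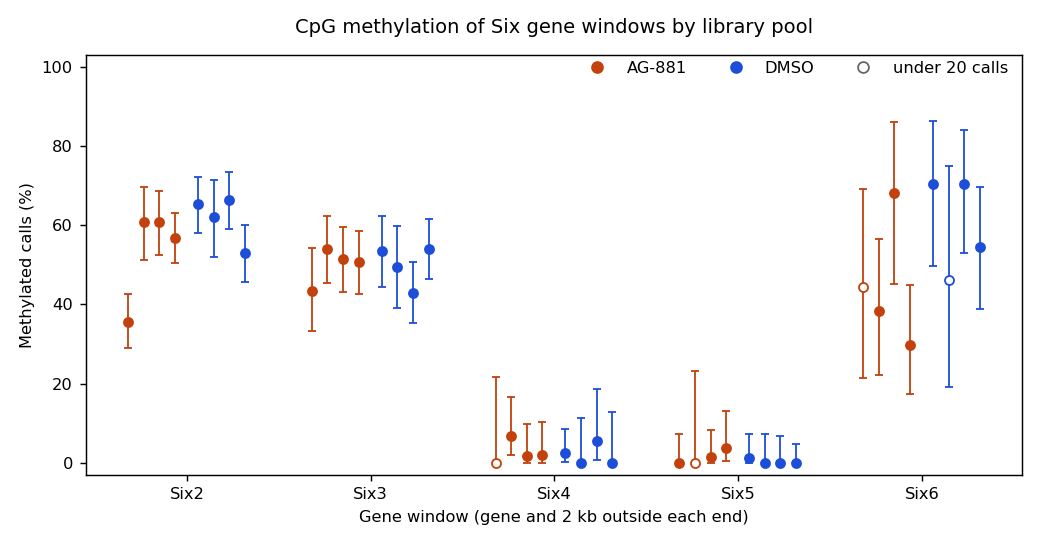
Methylation level (percent of calls, y axis) at the shared CpGs of each of the 5 gene windows in every library pool, with AG-881 pools 1 to 4 left of DMSO pools 5 to 8; bars are exact binomial intervals. Six2, Six3 and Six6 lie at intermediate levels in most pools and overlap between the arms, Six2 in AG-881 pool 1 is the lowest of its gene at 35.6%, and Six4 and Six5 lie near 0.

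Six6, a regulator of eye and pituitary development (gene ID 20476, chr12:72939882-72944899, plus strand), had 18 shared CpGs of 109. Its pools 1 to 4, with AG-881, had 44.4% (18 calls), 38.2%, 68.2% and 29.8%, against 70.4%, 46.2% (13 calls), 70.3% and 54.5% in pools 5 to 8, with DMSO. The pools of the arms overlapped, with AG-881 pool 3 among the high DMSO pools and DMSO pool 6 among the low AG-881 ones. In all, 41.3% (32.5 to 50.6; 121 calls in 36 cells) were methylated with AG-881 and 62% (52.7 to 70.7; 121 calls in 32 cells) with DMSO, a difference of −20.7 points (−33.1 to −7.52). Leaving out AG-881 pool 4 gave −13.3 points with an interval that included 0 (−28.0 to 1.76), which ends the call. Leaving out any other pool gave −26.6 to −17.0 points. The choice of CpGs and weights also decided the call. With CpGs read in 1 or more cells per arm (84 CpGs) the difference was −9.44 points, with every CpG that had a call −9.04 points, and with every cell given the same weight −5.79 points, all under 10 points.

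The decrease at Six6 lay beyond the gene's 3′ end. A cluster of 10 shared CpGs (a run of shared CpGs with gaps of at most 200 bp) spanned chr12:72945353-72945624, 454 to 725 bp past the end of Six6, where RefSeq annotates no gene. There 15 of 59 calls were methylated with AG-881 (25.4%, 15 to 38.4; 17 cells) and 51 of 69 with DMSO (73.9%, 61.9 to 83.7; 19 cells), a difference of −48.5 points (−62.8 to −30.8). Of the 10 CpGs, 9 were lower with AG-881 and 1, at position 72945564, was higher. AG-881 pools 2, 3 and 4 had 24%, 60% (10 calls) and 12.5%, and pool 1 had no call; DMSO pools 5, 6, 7 and 8 had 80% (15 calls), 50% (2 calls), 82.1% and 62.5%. Apart from DMSO pool 6 with its 2 calls, every DMSO pool was above every AG-881 pool. With each pool left out in turn, the difference ran from −55.6 to −39.6 points.

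This was the largest decrease among the 13531 clusters of the genome measured by the same rule, and no cluster had as large an increase. It was 1 of 423 clusters lower with AG-881, which are 3.13% of those measured, and 118 or 0.872% were higher. The cluster also stood in a thinly read stretch. Another 64 CpGs, all within 500 bp of it, missed the minimum of 5 cells in 1 arm or both. Pooled, they had 61.4% (52.9 to 69.3; 145 calls in 23 cells) with AG-881 and 65.7% (59.7 to 71.3; 268 calls in 32 cells) with DMSO, a difference of −4.29 points (−14.5 to 5.69). AG-881 pools 1 to 4 had 68.6%, 54.9%, 62.5% and 63% there, and DMSO pools 5 to 8 had 77.6%, 64.6%, 70.4% and 57%, so they overlapped. AG-881 pool 1, without a call in the cluster, gave 35 of these 145 calls, so the cluster and the CpGs around it rest on unlike pools. The CpGs around the cluster were methylated at a high level in both arms, and the large decrease was seen at the cluster's 10 shared CpGs.

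Within Six6 itself and around its start site the order of the arms was the other way. At the 6 shared CpGs within 1 kb of the start the level was 50% (50 calls) with AG-881 and 38.1% (42 calls) with DMSO, a difference of 11.9 points with an interval that included 0 (−9.87 to 32.4). With every CpG that had a call, 26 in all, the same stretch had 50.5% with AG-881 and 45.8% with DMSO (−8.92 to 18.3 points). Between the arms, no decrease was detectable at this depth at the Six6 start site. The windows of other genes nearest to Six6 in both levels were those of Glmn (42% with AG-881 and 60.6% with DMSO), Cfd (37.9% and 62.1% in the same order), Ugt8a, Nectin4 and Zfp12, taken by the smallest summed distance over the 2 arms among windows with no fewer than 50 calls and 20 cells in each arm.

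**Figure D2:**
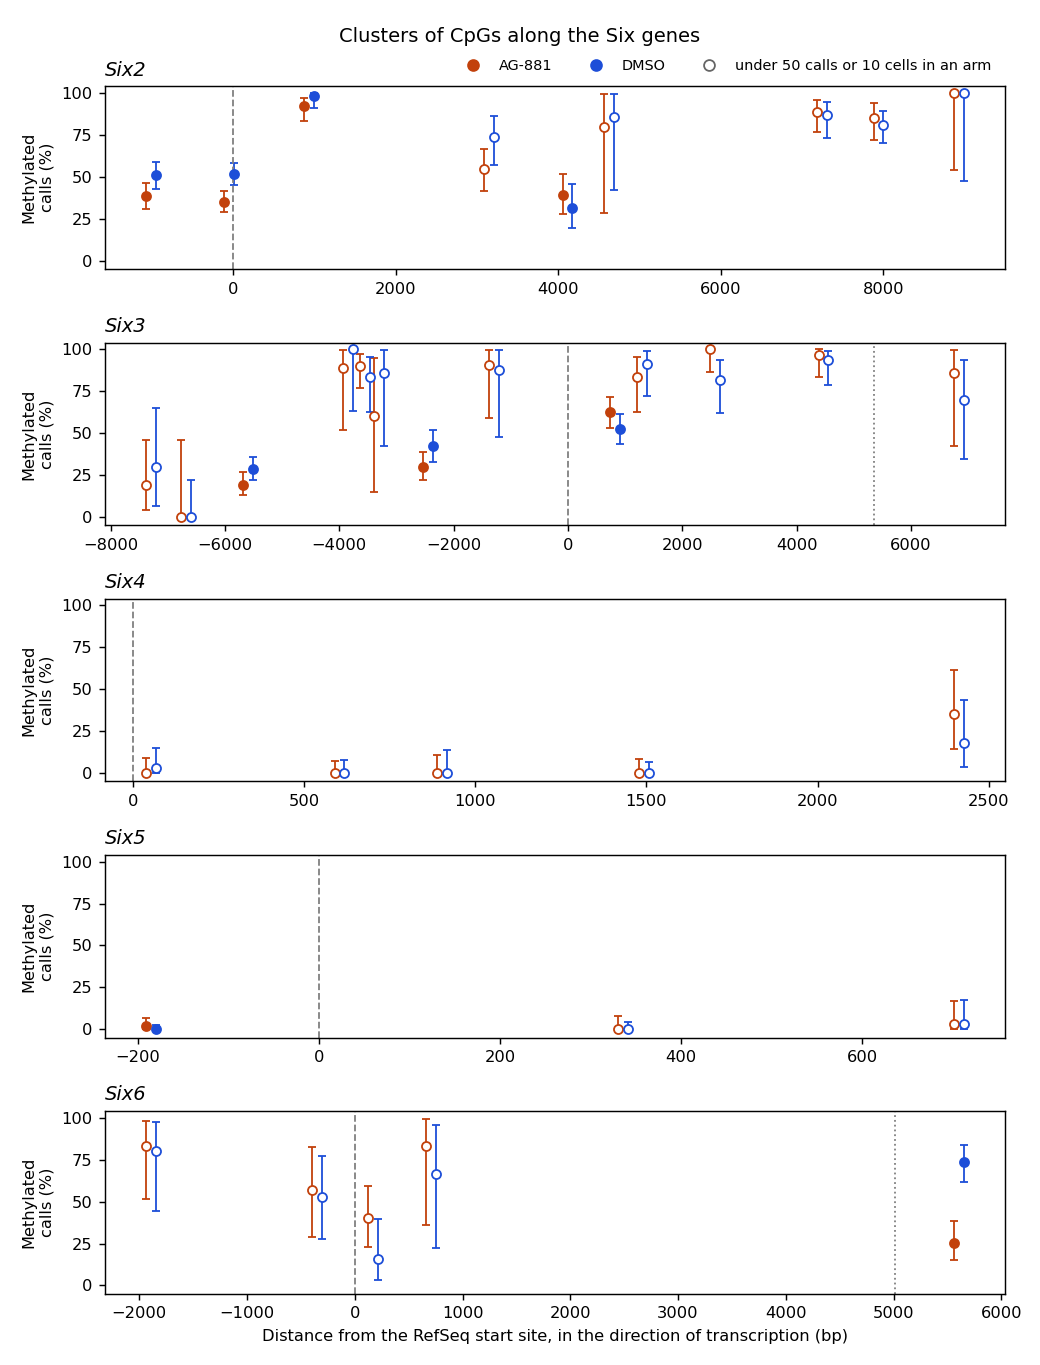
Methylation level (percent, y axis) of clusters of shared CpGs against distance from the start site (bp, x axis) in each gene, for AG-881 and DMSO; the dashed line is the start site, the dotted line the gene's end, and bars are exact binomial intervals. Open symbols mark clusters with under 50 calls or 10 cells in an arm. Among the filled ones, the arms part most at the Six6 cluster beyond the gene's end (25.4% with AG-881 and 73.9% with DMSO) and around the Six2 start site. Some open ones part more than at the Six2 start site.

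Six2, which maintains nephron progenitors (gene ID 20472, chr17:85662736-85688254, minus strand), had the most shared CpGs, 78 of 199. AG-881 pools 1 to 4 had 35.6%, 60.7%, 60.8% and 56.9%, against 65.4%, 62.1%, 66.5% and 52.9% in DMSO pools 5 to 8. AG-881 pool 1 stood well below the other 7 pools, and the remaining AG-881 pools lay within the DMSO range. In all, the level was 52.3% (48.6 to 56; 715 calls in 58 cells) with AG-881 and 61.6% (57.7 to 65.3; 658 calls in 61 cells) with DMSO, a difference of −9.24 points (−14.5 to −3.90), just short of 10 points. Without AG-881 pool 1 it was −2.68 points (−8.45 to 3.08). Leaving out AG-881 pool 2, 3 or 4, or DMSO pool 8, moved it past 10 points (−10.9, −11.5, −11.7 and −12.8). AG-881 pool 1 also had the lowest level over all shared CpGs of the genome, 23.6%, and its part in the Six2 result beyond these values was not tested.

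At Six2 the clusters lower by the same rule lay at its start site and just upstream. The cluster over the start (27 CpGs, chr17:85688080-85688528, from −274 to 174 bp around it, partly overlapping CJ186046Rik) had 35.3% (29.2 to 41.7; 238 calls in 32 cells) with AG-881 and 51.8% (45.1 to 58.4; 226 calls in 34 cells) with DMSO, a difference of −16.5 points (−25.5 to −7.17). Of its 27 CpGs, 20 were lower with AG-881, 6 were higher and 1 was equal. They included all 19 shared CpGs of the Six2 promoter, so the promoter's difference is not a separate result. AG-881 pools had 18.4%, 57.9%, 33.3% and 41.5%, and DMSO pools 62.9%, 60% (15 calls), 64.9% and 32.1%. AG-881 pool 2 and DMSO pool 8 each stood among the pools of the other arm. The call ended without AG-881 pool 1 (−8.56 points, −18.8 to 1.89), and the difference grew to −28.1 points without DMSO pool 8.

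A second cluster of 15 CpGs lay upstream of the Six2 start, from −1248 to −782 bp (chr17:85689036-85689502, inside CJ186046Rik). The level there was 38.3% (154 calls in 35 cells) with AG-881 and 51% (155 calls in 36 cells) with DMSO, a difference of −12.7 points (−23.8 to −1.12). This call rested on little: it ended without AG-881 pool 1 (−8.39 points) or 2 (−11.4), and without DMSO pool 5 (−9.87) or 7 (−10.7). Deeper in the gene the level differed widely between positions. At 834 to 1032 bp past the start Six2 was almost fully methylated, 92.1% with AG-881 and 98.3% with DMSO. At 3103 to 3185 bp, with fewer DMSO calls and cells than the minimum of 50 calls and 10 cells, it was 54.5% (66 calls in 12 cells) with AG-881 and 73.7% (38 calls in 7 cells) with DMSO, a difference of −19.1 points whose interval included 0 (−37.3 to 1.68). At 4014 to 4211 bp the level was 39.1% with AG-881 and 31.5% with DMSO, an interval that included 0 (−10.5 to 24.9).

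Six3, which patterns the forebrain and the eye (gene ID 20473, chr17:85613608-85626191, plus strand), had nearly equal levels in both arms over 64 shared CpGs of 208. AG-881 pools 1 to 4 had 43.5%, 53.9%, 51.4% and 50.6%, against 53.5%, 49.5%, 42.9% and 54% in DMSO pools 5 to 8, and the ranges were almost the same. In all, 50.5% (46.2 to 54.8; 541 calls) were methylated with AG-881 and 49.8% (45.6 to 54; 570 calls) with DMSO, a difference of 0.638 points (−5.36 to 6.63).

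Within Six3, the clusters with at least 50 calls and 10 cells in each arm differed in direction, though not beyond counting error. RefSeq's span of Six3 begins at 85613608, well before the start site at 85620834 from which distances are counted. The cluster from −5810 to −5396 bp relative to the start site lies in this span and in the opposite-strand RNA gene Six3os1. Its level was 19.3% with AG-881 and 28.5% with DMSO (−9.23 points, −18.9 to 0.899). The cluster from −2623 to −2268 bp, also in both genes, had 29.8% with AG-881 and 42.3% with DMSO (−12.6 points, −25.2 to 0.359). The cluster 690 to 959 bp past the start, in Six3 alone, had 62.7% with AG-881 and 52.4% with DMSO (10.3 points, −2.98 to 23.2). Of these clusters, those before the start site were thus lower and the one past it higher with AG-881, none beyond counting error with all pools in. Single pools decided this: the first was lower without AG-881 pool 4 (−12.2), the second without AG-881 pool 2 (−15.1), AG-881 pool 4 (−14.3) or DMSO pool 6 (−17.3), and the third was higher without AG-881 pool 4 (16.3), DMSO pool 5 (14.8) or DMSO pool 8 (20.1). Other pools took the differences away: the third was 0.0767 points without DMSO pool 7, and the first was −6.47 points without AG-881 pool 1. Among the Six3 clusters with fewer calls or cells, both orders of the arms occurred on either side of the start site.

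Six4, a regulator of muscle development (gene ID 20474, chr12:73099609-73114031, minus strand), was nearly unmethylated over 27 shared CpGs of 96. Here 6 of 179 calls were methylated with AG-881 (3.35%, 1.24 to 7.15) and 4 of 176 with DMSO (2.27%, 0.623 to 5.72), a difference of 1.08 points (−2.96 to 5.22). AG-881 pools ran from 0 (15 calls) to 6.90% and DMSO pools from 0 to 5.56%, so they overlapped. Most of these methylated calls came from 1 small cluster, 2357 to 2469 bp past the start, with 6 of 17 calls with AG-881 and 3 of 17 with DMSO. Within 1 kb of the start 0 of 120 calls were methylated with AG-881, with an interval up to 3.03%, and 1 of 105 with DMSO. The window overlaps that of Mnat1, whose measured calls were the same ones.

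Six5, the neighbour of Dmpk (gene ID 20475, chr7:19094544-19098549, plus strand), had 25 shared CpGs of 87 and the lowest level of the family. With AG-881 3 of 180 calls were methylated (1.67%, 0.345 to 4.79) and with DMSO 1 of 253 (0.395%, 0.0100 to 2.18), a difference of 1.27 points (−0.951 to 4.42). AG-881 pools had 0, 0 (14 calls), 1.56% and 3.77%, and DMSO pools 1.33%, 0, 0 and 0, so methylated calls were single events in either arm. The Dmpk window, which overlaps that of Six5, rested on the same calls. With every upstream CpG that had a call in any cell, 10 of 129 were methylated with AG-881 (7.75%) and 3 of 153 with DMSO (1.96%), a difference of 5.79 points (0.388 to 12) that stayed under 10 points.

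**Figure D3:**
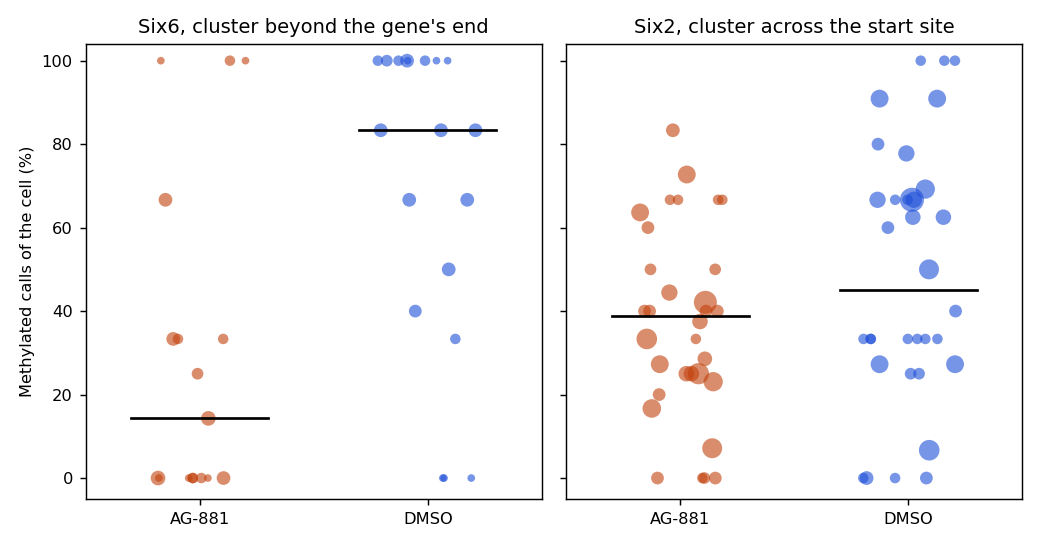
Methylation level of single cells (percent, y axis) at the Six6 cluster beyond the gene's end and at the Six2 cluster across the start site, AG-881 left of DMSO. Cells with at least 1 call in the cluster are shown, dots grow with the number of calls, and lines are medians over cells. The medians at Six6 are 14.3% with AG-881 (17 cells) and 83.3% with DMSO (19 cells), and at Six2 38.8% (32 cells) and 45% (34 cells) in that order.

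Most single cells also had intermediate levels over the Six2 and Six3 windows. Of the AG-881 cells with at least 5 calls in the Six2 window, 38 of 47 lay between 20% and 80% (lowest 0, median 56.5%, highest 100%), and of the DMSO cells 42 of 49 (lowest 0, median 62.5%, highest 100%). For Six3 it was 31 of 40 AG-881 cells (lowest 0, median 50%, highest 100%) and 38 of 42 DMSO cells (lowest 6.67%, median 50%, highest 83.3%). All 18 AG-881 and 20 DMSO cells of Six4, and all 17 AG-881 and 23 DMSO cells of Six5, lay below 20%. A cell window spans stretches of unlike level, so the narrower start-site cluster of Six2 was also read. Of the cells with at least 1 call there, 25 of 32 AG-881 cells and 24 of 34 DMSO cells lay between 20% and 80%. The Six2 clusters deeper in the gene, read the same way, had fewer such cells. At 834 to 1032 bp past the start they were 4 of 18 AG-881 and 0 of 12 DMSO cells. At 4014 to 4211 bp they were 7 of 28 AG-881 and 11 of 23 DMSO cells. With at least 3 calls, those at 4014 to 4211 bp were 5 of 15 AG-881 and 7 of 11 DMSO cells. The narrow Six3 clusters, also read in cells with at least 1 call, varied as well. In the one from −5810 to −5396 bp, 15 of 25 AG-881 cells and 10 of 30 DMSO cells lay below 20%, with 12 and 6 of them at 0. In the one from −2623 to −2268 bp, 12 of 28 AG-881 cells, all of them at 0, and 6 of 24 DMSO cells lay below 20%. With at least 3 calls these were 8 of 24 AG-881 cells and 4 of 22 DMSO cells, so part of them had few calls. In the one past the start, 9 of 13 AG-881 cells and 8 of 15 DMSO cells lay between 20% and 80%.

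Six6 cells were few and spread widely. The 9 AG-881 cells with at least 5 calls had a lowest level of 0, a median of 33.3% and a highest of 83.3%, and the 11 DMSO cells 33.3%, 66.7% and 100%. At the cluster beyond the gene's end, cells with at least 1 call sat more at the ends of the scale. With AG-881, 8 of 17 cells were at 0 and 3 at 100%, against 3 at 0 and 8 at 100% of 19 DMSO cells, though cells with 1 or few calls can hardly lie elsewhere. Six2 and Six3, neighbours on chromosome 17, showed little relation across cells, with Pearson's r of 0.0612 over 30 AG-881 cells and 0.127 over 35 DMSO cells. These cells share libraries and differ in depth, so the values are descriptions.

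Of the genes known to work with the family, 20 of 24 listed had measured windows. The level was lower with AG-881 at 14 of these and higher at 6, and their differences had a median of −2.26 points. Over all measured windows 55.6% were lower, with a median of −0.270 points. Of windows with a mean of both arms of 20% to 40%, 64.1% were lower, with a median of −2.10 points. Of those with a mean of 40% to 60%, 64.9% were lower, with a median of −2.77 points. The listed windows lay in these and other classes. The coactivators went either way. Eya1 had 30% (50 calls) with AG-881 and 14.3% (63 calls) with DMSO, a difference of 15.7 points whose interval included 0 (−0.740 to 32.2). Eya2 had 60% with AG-881 and 53.8% with DMSO, Eya3 had 18.2% and 21.3% in that order, and Eya4 had 16.4% and 19.3%. None of these Eya differences exceeded counting error. The cofactors Dach2 (30.2% with AG-881 and 33.3% with DMSO) and Sobp (24% with AG-881 and 24.8% with DMSO) also lay within it.

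Of the 20, 1 was lower by at least 10 points with an interval that left out 0, and none was higher, beside 2.93% lower and 0.891% higher of all measured windows. The secreted morphogen gene Shh, known as a target of Six3, had 46.3% (367 calls) with AG-881 and 57.1% (364 calls) with DMSO, a difference of −10.8 points (−18.1 to −3.39). AG-881 pools of Shh had 42.4%, 53.3%, 47.3% and 42.4%, and DMSO pools 61.1%, 57.1%, 61.8% and 49%, so they overlapped through AG-881 pool 2 and DMSO pool 8. For Shh the difference fell under 10 points without AG-881 pool 1 (−9.97) or 4 (−8.95), or without DMSO pool 5 (−9.52) or 7 (−9.02), with intervals that still left out 0. The next largest decrease was at Igfbp5, which encodes a binding protein of insulin-like growth factors (66.7% with AG-881 and 76.5% with DMSO), with an interval that included 0 (−21.9 to 2.82 points). The largest increases outside the coactivators and cofactors were at Wt1, a kidney transcription factor (73.6% with AG-881 and 65% with DMSO), and Pax6, an eye regulator (35% with AG-881 and 30.5% with DMSO), both with intervals that included 0.

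**Figure D4:**
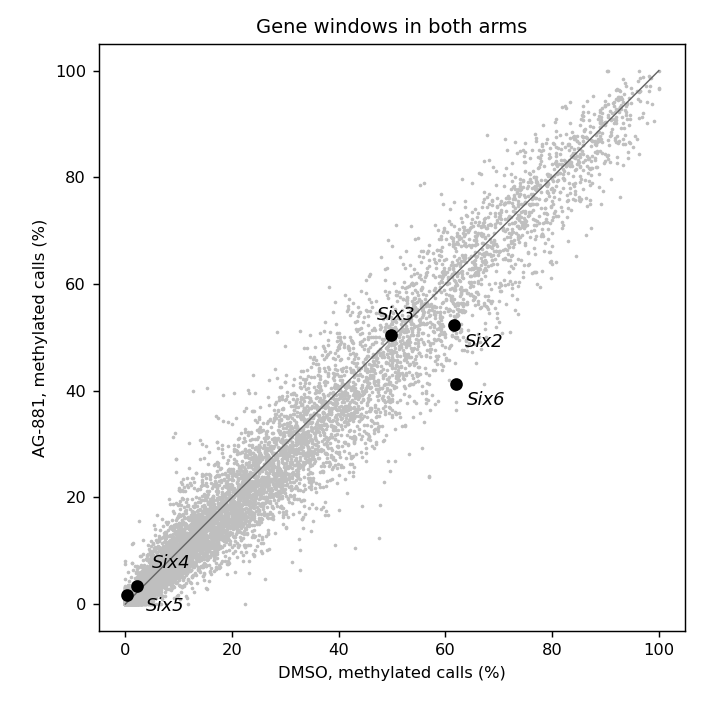
Methylation level with AG-881 (percent, y axis) against that with DMSO (percent, x axis) for the 11903 measured gene windows, with the 5 sine oculis family genes named. Six6 (41.3% with AG-881 and 62% with DMSO) and Six2 (52.3% and 61.6% in that order) lie below the diagonal, and Six3, Six4 and Six5 near it.

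With 5 windows, 1 lower one is not a share that can be set apart from the 2.93% of all measured windows. The differences had a median of 0.638 points over the 5 windows and −0.270 points over all 11903. Decreases were larger where methylation was intermediate, and that is where Six2, Six3 and Six6 lie. Windows with a mean of both arms between 40% and 60% had a median difference of −2.77 points (1062 windows), and those below 20%, the class of Six4 and Six5, −0.0786 points. Of the 35 clusters in the 5 windows, 9 had at least 50 calls and 10 cells in each arm. Of these 9, 3 (2 at Six2 and 1 at Six6) were lower with AG-881 and none was higher. Of all 13531, 3.13% were lower and 0.872% higher, but 9675 had a mean of both arms below 20%, where a 10-point decrease has little room. Shares of lower clusters at like levels were not computed, so no excess is read from the 3 of 9. Both Six2 calls ended without AG-881 pool 1. The differences of the 9 had a median of −9.23 points. Over all clusters, most of which were almost unmethylated, the median was 0, and it was −4.07 points for clusters with a mean of both arms of 20% to 40% and −3.24 points for those of 40% to 60%. Over the 5 windows together the level was 40.7% (38.4 to 43; 1736 calls) with AG-881 and 43.3% (40.9 to 45.6; 1778 calls) with DMSO, a difference of −2.58 points with an interval that included 0 (−5.88 to 0.721). Without AG-881 pool 1 it was −0.163 points, and without DMSO pool 7 −1.45 points.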

How the data were processed

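Methylation was measured by RRBS in single mouse glioma cells, from which transcriptomes were also made. The deposited table gives each CpG position's methylated fraction in each cell (0, 0.5 or 1), per the file headers and its values, and the submitters' processing notes name mm10 as its build. The aligner and methylation caller were not given in the sources used here. Reads behind a fraction are not recorded, so a fraction above 0.5 counted as 1 methylated call and one below as 1 unmethylated call. Of merged calls, 0.649% were ties and were left out. Of 1416034 positions, 4557 lay outside the autosomes and the X chromosome and were left out. Adjacent positions, the strands of 1 CpG, were merged, giving 1322177 CpGs from the other 1411477 positions. Of 187113 positions within RefSeq promoters, 98.4% fell on a CG, which checks the build.

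Columns were mapped to their arm and pool by their names, not to single wells. Levels are methylated calls over all calls at CpGs read in a minimum of 5 cells per arm. A gene window or cluster counted as measured from 50 calls and 10 cells in each arm. Start sites, strands and promoter sequences came from RefSeq (GRCm38.p6); exons were not used here. The 5 genes, the list of their partners and the rules for naming were chosen with earlier results of these data known. Another listed gene is not reported here and was left out of the list's counts. Of the 24 remaining listed partners, every measured coactivator and cofactor was to be named, and of the rest the pair with the largest decrease and the pair with the largest increase. Alternatives changed the CpGs compared, weights, ties, strands and window, and left out each pool. The computations were tested on simulated data and used Python 3.11.15, numpy 2.4.6, pandas 2.3.3, scipy 1.17.1 and matplotlib 3.10.9.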

Additional observations from a re-analysis of the deposited data

Results flagged for a closer look

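In 12 sets of 4 pools (the 5 gene windows and their sum, in each arm) the highest and lowest pool were compared with the others by Dixon's ratio of gap to range at its 95% critical value. Among independent sets of normally distributed values about 1 in 20 would pass by chance, and 2 of the 12 did. These sets are not of that kind, since the sum holds the 5 windows and some percentages lie near 0. Six2 had 35.6% in AG-881 pool 1, against 56.9% to 60.8% in the other AG-881 pools. Six5 had 1.33% in DMSO pool 5, from 1 methylated call of 75, against 0 in the other DMSO pools. With the others all at 0, the ratio is 1 for any methylated call, so this pass says nothing more than the count. The causes were not tested.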

How the results depend on the processing

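Of 130 values recomputed under the alternatives, 122 stayed within the counting interval of the reported difference. The small differences at Six3 and Six4 changed sign within it when single pools were left out (Six3 −2.27 to 2.49 points, Six4 −0.620 to 1.92 points). Requiring 10 cells per arm left 13 CpGs at Six2 (−17.1 points), 7 at Six3 (7.35 points) and none at Six4 or Six6. Giving every cell the same weight brought Six2 to −2.96 points and Six6 to −5.79 points. Six6 was also under 10 points with CpGs read in 1 or more cells per arm (−9.44) or with every CpG that had a call (−9.04). With the gene alone, Six6 reversed to 19.2 points on 4 CpGs, since the cluster beyond its end was then left out, and the 5 genes together moved to 1.16 points. With each pool left out in turn, the difference at Six2 ran from −12.8 to −2.68 points, over the 5 genes together from −3.75 to −0.163 points, and at its start-site cluster from −28.1 to −8.56 points. The causes of the other moves were not tested. Alternatives for the clusters, for CpGs called in any cell by part of the gene and for classes by the mean of both arms were chosen after seeing the data. No paired analysis was possible because the pools of the arms share no number or label that pairs them and no test was made. Depth limited Six6 most: 16.5% of its CpGs were shared, and its cluster rested on 59 AG-881 and 69 DMSO calls.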
